A study of Mus musculus with 16 samples.

Results

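The major urinary protein (Mup) genes of the mouse liver are described here across pair-fed and ethanol-fed mice with and without iodomethylcholine (IMC), a small molecule that inhibits the choline trimethylamine lyase of gut bacteria. The 8 members were Mup2, Mup3, Mup10, Mup11, Mup15, Mup18, Mup20 and Mup21, taken by symbol with 1 row per Ensembl identifier, of 24082 genes in all. They were selected on the IMC comparisons of these same livers, so their IMC values are a description. The number of members past the threshold of the fit is printed for IMC beside the share of all genes past it. Counts under other settings, at the end, have no share of their own, and nothing is read from either. The samples were 16 livers, 4 in each of 4 groups, from female C57Bl6/J mice aged 9 to 11 weeks. Pair control and Pair IMC mice received a pair-fed liquid diet. EtOH control and EtOH IMC mice received the same kind of diet with chronic ethanol, which was raised in steps to 6% vol/vol over 25 days. IMC was mixed into the diet at 0.06% wt/wt, and control mice received the diet without it. By the study's account, intake and body weight were reduced where the ethanol diet contained IMC, and several mice shared a cage. A figure legend of the study also marks a difference of body weight between pair-fed mice with and without IMC. Each library held 9632659 to 12601199 reads on genes.

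Major urinary proteins are small lipocalins that hepatocytes secrete into the blood, from which they pass into the urine and carry volatile pheromones. The genes form a dense cluster of recent duplicates, and their transcripts are far more abundant in adult males than in females of most strains. Pulses of growth hormone acting through STAT5, together with androgen, glucocorticoid, thyroid hormone and feeding, are known to set their level in the liver. Mup20 encodes darcin, a male sex pheromone that is itself a protein signal.

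All 8 genes lay on the minus strand of chromosome 4 in GRCm38 and were annotated as protein coding. Mup2 (ENSMUSG00000078688) lay at chr4:60135932-60154289, Mup10 (ENSMUSG00000078680) at chr4:60578260-60582199 and Mup11 (ENSMUSG00000073834) at chr4:60658466-60662411. Mup15 (ENSMUSG00000096674) lay at chr4:61435790-61439743 and Mup18 (ENSMUSG00000078674) at chr4:61670177-61674136. Farther along, Mup20 (ENSMUSG00000078672) lay at chr4:62050234-62054158, Mup3 (ENSMUSG00000066154) at chr4:62083476-62087342 and Mup21 (ENSMUSG00000066153) at chr4:62147932-62150863. The first 5 are near copies of each other, and the other 3 sit together at the far edge of the cluster.

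The coding sequences were compared because they decide how well reads could be told apart. Mup2, Mup10, Mup11, Mup15 and Mup18, called the 5 near copies below, were 98.7% to 99.8% identical to each other over the whole coding sequence. Mup20 was 90.4% to 91.3% identical to them. Mup3 and Mup21 were 94.8% identical to each other and 83.0% to 84.9% identical to the 5 near copies. Over the last 480 coding bases, the 8 members differed at 97 positions and the 5 near copies at 4. The stretch of 90 coding bases in which the members differed most is printed for 6 of them, from the GENCODE transcripts of GRCm38, on the minus strand. It lies across 3 adjoining exons, for Mup2 within chr4:60137727-60139223, Mup10 within chr4:60580053-60581525, Mup15 within chr4:61437583-61439069, Mup20 within chr4:62052001-62053484, Mup3 within chr4:62085304-62086804 and Mup21 within chr4:62148684-62150199. Capitals mark the bases that differ from Mup2.
Mup2: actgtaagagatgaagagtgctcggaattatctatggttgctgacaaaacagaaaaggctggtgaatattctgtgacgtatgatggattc
Mup10: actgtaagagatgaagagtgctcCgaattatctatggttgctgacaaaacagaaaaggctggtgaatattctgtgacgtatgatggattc
Mup15: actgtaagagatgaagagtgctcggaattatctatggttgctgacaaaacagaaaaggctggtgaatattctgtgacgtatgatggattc
Mup20: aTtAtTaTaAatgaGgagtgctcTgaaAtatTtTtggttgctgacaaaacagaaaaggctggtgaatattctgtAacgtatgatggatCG
Mup3: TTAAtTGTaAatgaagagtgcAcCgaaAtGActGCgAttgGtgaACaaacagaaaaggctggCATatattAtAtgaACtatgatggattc
Mup21: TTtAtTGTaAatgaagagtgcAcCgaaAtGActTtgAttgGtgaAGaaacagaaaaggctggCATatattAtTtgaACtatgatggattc
Mup15 had no difference from Mup2 here, Mup10 had 1, Mup20 had 13, Mup3 had 26 and Mup21 had 24.

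**Figure D1:**
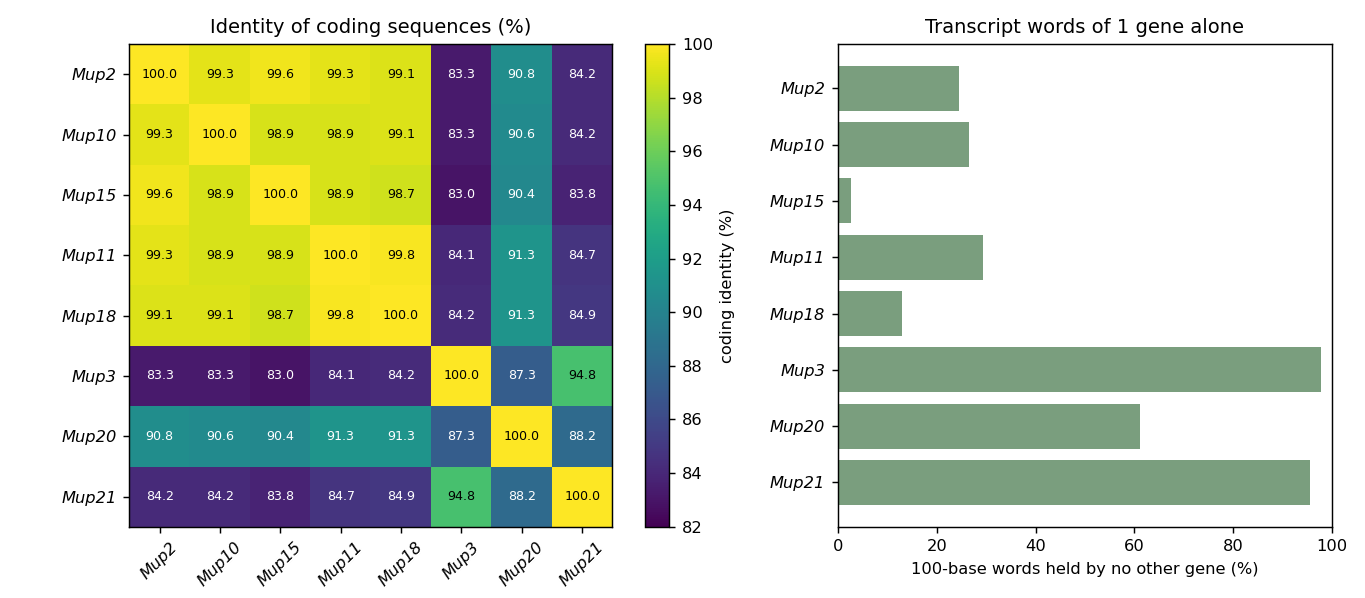
Identity of coding sequences between the 8 members (left, percent) and the share of each gene's 100-base transcript words that no other annotated gene holds (right, percent). The 5 near copies were 98.7% to 99.8% identical and had at most 29.4% of words of their own, against 97.8% for Mup3 and 95.5% for Mup21.

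A single read of 100 bases can be given to 1 gene only where its sequence occurs nowhere else. The labels describe paired reads and the study's methods single reads, and with paired reads more fragments than these shares could be placed. Of all 100-base words in the annotated transcripts of each gene, 97.8% were found in no other gene for Mup3 and 95.5% for Mup21. The share was 61.2% for Mup20, whose remaining words were shared only with the pseudogene Mup-ps19. It was 29.4% for Mup11, 26.6% for Mup10, 24.5% for Mup2, 12.9% for Mup18 and 2.66% for Mup15. Each of these 5 shared words with 16 or 17 other genes, and how reads with several matches were treated is not given in the sources used here. The counts of the 5 near copies are therefore uncertain as values of single genes, and their sum over the 5 is given beside them. That sum is uncertain too, because words were also shared with Mup genes outside the 5. Mup14 held 56.2% of the words of Mup2, and Mup22 held 54.5% of those of Mup10.

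The promoters that could be compared fell into sets like those of the coding sequences, but Mup20 and Mup11 were not among them. They were read from RefSeq windows of GRCm38.p6, which covered 7 of the 8 members and lacked Mup20. A stretch of 207 bases ending at the box TATATAA could be read for 6 of these, all but Mup11. Identity over the stretch was 88.4% to 96.6% among Mup2, Mup10, Mup15 and Mup18, 91.3% between Mup3 and Mup21, and 70.5% to 75.4% between the sets. Printed 5′ to 3′ on the minus strand to show both sets are Mup10 (chr4:60582179-60582385), Mup15 (chr4:61439723-61439929), Mup3 (chr4:62087322-62087528) and Mup21 (chr4:62150843-62151049). Capitals mark TATATAA and AATCAAT, the latter being letters that the factors HNF6 (Onecut1) and CUX2 can bind.
Mup10: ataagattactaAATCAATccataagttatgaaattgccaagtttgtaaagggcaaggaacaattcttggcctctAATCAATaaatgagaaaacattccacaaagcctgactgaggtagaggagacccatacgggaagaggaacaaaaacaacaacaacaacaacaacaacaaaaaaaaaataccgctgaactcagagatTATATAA
Mup15: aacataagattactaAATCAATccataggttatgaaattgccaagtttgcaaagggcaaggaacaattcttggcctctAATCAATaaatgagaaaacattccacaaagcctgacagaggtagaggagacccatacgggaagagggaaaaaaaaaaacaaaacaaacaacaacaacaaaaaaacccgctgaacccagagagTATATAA
Mup3: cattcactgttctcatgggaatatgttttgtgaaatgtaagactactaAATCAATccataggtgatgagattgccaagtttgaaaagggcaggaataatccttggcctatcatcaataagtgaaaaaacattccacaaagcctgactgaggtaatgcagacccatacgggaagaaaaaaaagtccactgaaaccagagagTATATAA
Mup21: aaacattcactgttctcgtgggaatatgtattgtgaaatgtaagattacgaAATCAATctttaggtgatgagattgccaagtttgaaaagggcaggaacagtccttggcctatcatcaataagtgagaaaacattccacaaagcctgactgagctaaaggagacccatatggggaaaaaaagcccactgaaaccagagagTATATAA
AATCAAT occurred 2 times in the stretch of Mup10 and Mup15, and 1 time in that of Mup3 and Mup21. In the whole windows, TATATAA was found on the gene's strand in 7 of 7 members and in 2.20% of all 32851 promoters. AATCAAT, searched on both strands, was found in 7 of 7 members and 2.86% of all promoters. TTCNNNGAA, the letters of a STAT5 site, was found on either strand in 0 of 7 members and 8.30% of all promoters. TGTTCT, letters that the glucocorticoid receptor can bind, was found on either strand in Mup3 and Mup21 and in 19.0% of all promoters. These are matches of letters in a short window and show no binding.

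Levels are given as rescaled counts, which are the deposited counts put on a common scale over the 16 libraries, with 1 read worth 0.847 to 1.26. In bulk liver, fewer cells of a type and less RNA per cell cannot be told apart. Per kilobase of annotated exon, Mup3 had the highest mean level of the members in each of the 4 groups. In Pair control it stood at 11317 ± 3103 rescaled counts per kilobase (SD, n = 4), above Mup10 at 1589 ± 309.5. Mup20 at 226.2 ± 32.6 and Mup15 at 140.0 ± 30.1 followed. Mup2 at 65.7 ± 25.2 overlapped with Mup15 above it and with Mup21 at 53.8 ± 15.97 below it. Mup18 at 22.7 ± 1.70 and Mup11 at 11.1 ± 2.82 were lowest and did not overlap with each other. The order changed between groups. In EtOH IMC, Mup20 at 1037 ± 203.5 rescaled counts per kilobase overlapped with Mup3 at 1484 ± 508.0, and Mup10 came next at 67.2 ± 24.3. Every one of the 8 members passed the filter for testing, a rescaled count of at least 10 in at least 4 of the 16 libraries. Mup11 and Mup18 passed through the control groups alone, since no library of Pair IMC or EtOH IMC reached 10 for either. Mup21 passed through the pair-fed groups, since only 2 EtOH control livers and 1 EtOH IMC liver reached 10 for it.

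As counted, the sum of the members was small in these female livers. The 8 members held 0.0178% to 0.168% of all reads on genes, against 6.74% to 13.04% for Alb. If reads with several matches were left out, the near copies were counted too low. The sum, the share of each member and the order of levels per kilobase all have this limit. In pair-fed mice the summed rescaled count of the 8 members was 14799 ± 3439 for Pair control and 8950 ± 3335 for Pair IMC (SD, n = 4). In ethanol-fed mice it was 13473 ± 1817 for EtOH control and 2664 ± 654.9 for EtOH IMC. The EtOH IMC livers, at 1899 to 3499, lay below every liver of the other groups. Pair IMC, at 5906 to 13257, overlapped with Pair control at 11266 to 19512. The make-up of the sum differed as well. Mup3 made up 81.2% ± 3.83 of the Pair control sum and 88.1% ± 1.41 of the Pair IMC sum, but 72.3% ± 4.64 and 58.4% ± 6.92 of the EtOH control and EtOH IMC sums. Mup20 made up 1.45% ± 0.212 of the Pair control sum and 7.20% ± 1.46 of the Pair IMC sum, against 2.002% ± 0.552 and 36.8% ± 5.81 for the ethanol-fed controls and IMC mice. The share of Mup10 was 15.3% ± 3.26 and 22.6% ± 4.02 in the pair-fed and ethanol-fed control groups, and 3.90% ± 1.68 and 3.83% ± 2.06 in the IMC groups.

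**Figure D2:**
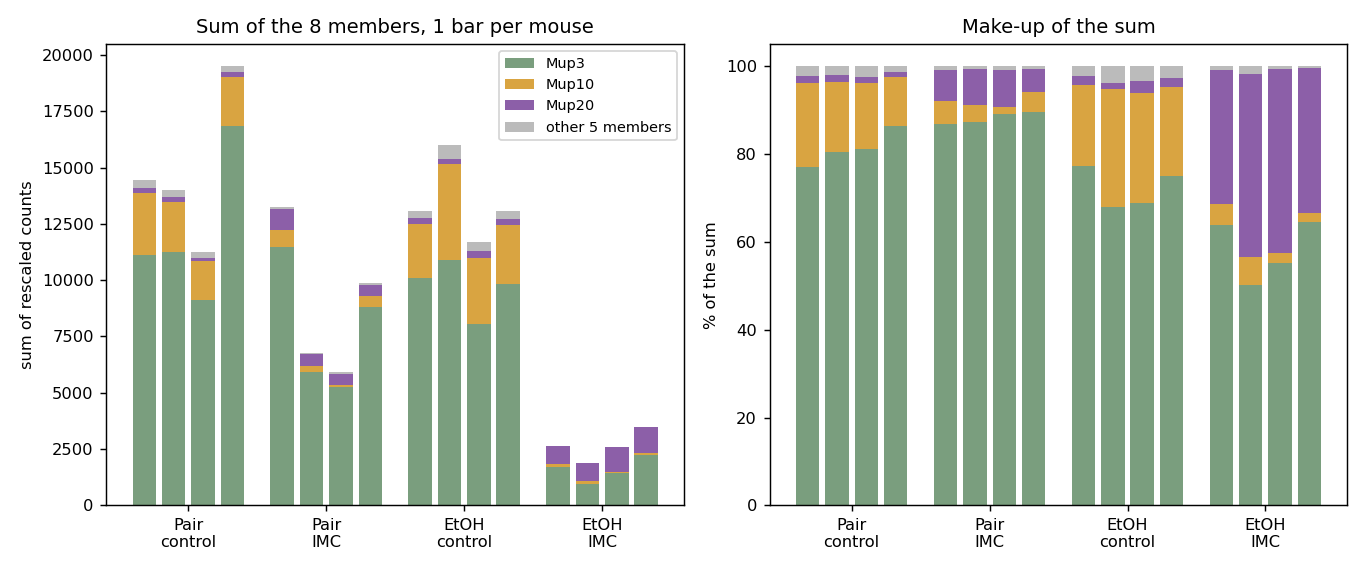
Summed rescaled counts of the 8 members (left) and the percent of the sum from Mup3, Mup10, Mup20 and the other 5 members (right), with 1 bar per mouse in the 4 groups. The EtOH IMC bars reach 1899 to 3499, and Mup20 makes up 36.8% of them on average.

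With IMC, the 5 near copies were lower and Mup20 was higher in both diets, Mup3 was lower mainly in ethanol-fed mice, and Mup21 showed little difference. These comparisons chose the members, so the values are descriptive and the counts past the threshold are no test of them. Past an adjusted p of 0.05 (Benjamini-Hochberg) in pair-fed mice were 5 of 8 members lower, beside 5.17% of the 12537 genes tested, and 1 higher, beside 4.32%. In ethanol-fed mice these were 6 lower, beside 11.1% of genes, and 1 higher, beside 10.4%. Mup11 and Mup18 are in both counts of lower members, and had to be low in the IMC groups once they passed the filter through the controls alone. The median log2 fold change of the 8 members was -2.63 in pair-fed and -3.45 in ethanol-fed mice, and that of all genes was -0.00092 and -0.0016.

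Mup10 was the most abundant of the 5 near copies. Its rescaled counts were 2750, 2225, 1697 and 2172 in Pair control and 723, 272, 91.2 and 452 in Pair IMC. In EtOH control they were 2397, 4293, 2948 and 2643, and in EtOH IMC 126, 119, 60.7 and 68.1. Neither pair of groups overlapped, and the Pair IMC livers spread over 7.92-fold, against 1.62-fold in Pair control. The log2 fold change with IMC was -2.85 (SE 0.429) in pair-fed and -5.06 (SE 0.429) in ethanol-fed mice. This corresponds to 17.4% and 3.05% of the control means.

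Mup15 is the member with the fewest words of its own, and it followed Mup10. It was at 148.2, 133, 89.2 and 147.7 in Pair control and at 41.7, 8.77, 10.03 and 17.6 in Pair IMC. It was at 173, 417, 253 and 206 in EtOH control and at 9.47, 5.93, 3.98 and 2.84 in EtOH IMC. All 4 IMC livers were below all 4 control livers in each diet, and the EtOH IMC values came from 3 to 11 reads. The log2 fold change was -2.90 (SE 0.403) in pair-fed and -5.35 (SE 0.403) in ethanol-fed mice.

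Mup2 had a similar course. Its rescaled counts were 130.4, 80.3, 91.5 and 48.9 in Pair control and 20.3, 7.79, 15.04 and 20.2 in Pair IMC. They were 82.5, 138, 77.2 and 109.95 in EtOH control and 5.16, 5.08, 5.97 and 1.89 in EtOH IMC. The groups did not overlap in either diet, and the EtOH IMC livers had 2 to 6 reads each. The log2 fold change was -2.40 (SE 0.347) in pair-fed and -4.26 (SE 0.347) in ethanol-fed mice.

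Mup11 and Mup18 are the least abundant near copies, and their IMC values rest on a few reads. Mup11 had 18, 18, 18 and 11 reads in Pair control and 5, 1, 2 and 0 in Pair IMC. It had 12, 21, 38 and 13 reads in EtOH control and 1, 1, 0 and 0 in EtOH IMC. With the floor of 3 reads in place of these, Mup11 was at least 6.57-fold lower in EtOH IMC than in EtOH control. Mup18 had 18, 21, 20 and 20 reads in Pair control and 5, 1, 0 and 1 in Pair IMC. It had 24, 37, 32 and 23 reads in EtOH control and 2, 4, 1 and 4 in EtOH IMC. For both genes all IMC livers were below all control livers of their diet, but a further difference between Pair IMC and EtOH IMC was not detectable at this depth. Summed over the 5 near copies, the rescaled count was 2467 ± 470 in Pair control and 424 ± 291 in Pair IMC, and 3482 ± 989 in EtOH control and 106.5 ± 37.5 in EtOH IMC. Pair IMC thus held 17.2% and EtOH IMC 3.06% of the mean of its control group, and neither pair overlapped.

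Mup3 is nearly free of shared words. It had rescaled counts of 11122, 11248, 9133 and 16841 in Pair control and 11492, 5907, 5260 and 8827 in Pair IMC. It had 10116, 10887, 8043 and 9824 in EtOH control and 1693, 954, 1436 and 2257 in EtOH IMC. The pair-fed groups overlapped through the highest Pair IMC liver, whereas the ethanol-fed groups stood far apart. The log2 fold change was -0.65 (SE 0.253) in pair-fed and -2.67 (SE 0.253) in ethanol-fed mice. That Pair IMC liver (library 2) had the highest rescaled count of its group for all 8 members, and without it the pair-fed change of Mup3 was -0.86.

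Mup20, the darcin gene, went the other way. It was at 217, 232, 165 and 225 in Pair control and at 926, 553, 497 and 515 in Pair IMC. It was at 264, 211, 312 and 263 in EtOH control and at 812, 791, 1090.4 and 1158 in EtOH IMC. All 8 IMC livers lay above all 8 control livers. The means were 2.97-fold higher in pair-fed and 3.67-fold higher in ethanol-fed mice, with log2 fold changes of 1.53 (SE 0.185) and 1.86 (SE 0.185).

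Mup21, the neighbour of Mup3, had rescaled counts of 26.7, 27.4, 45.8 and 45.8 in Pair control and 43.7, 28.3, 30.1 and 23.9 in Pair IMC. It had 14.4, 9.62, 12.7 and 9.08 in EtOH control and 5.16, 19.5, 5.97 and 7.56 in EtOH IMC. The IMC and control livers overlapped in both diets. The log2 fold change with IMC was -0.19 (SE 0.339) in pair-fed and -0.39 (SE 0.339) in ethanol-fed mice.

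**Figure D3:**
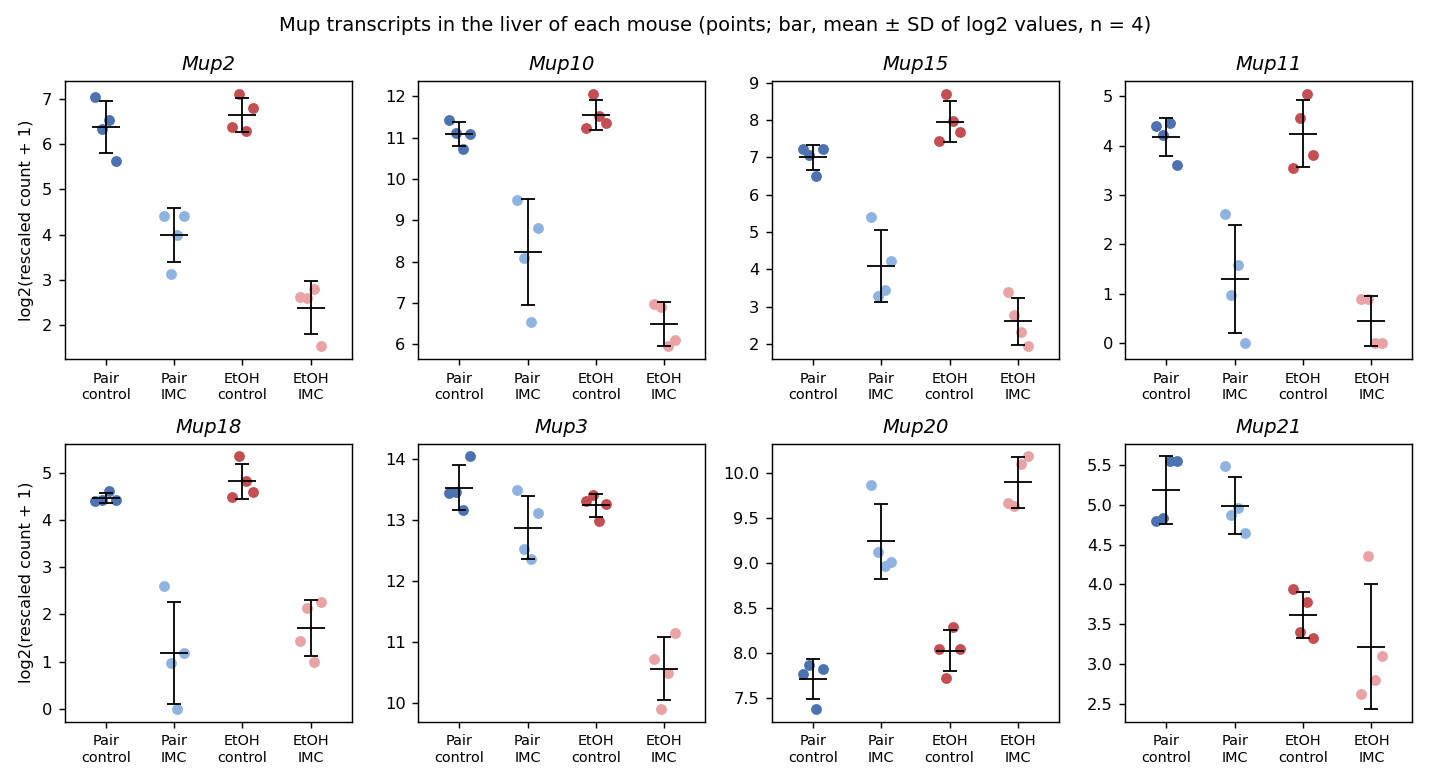
Rescaled counts of the 8 members on a log2(value + 1) scale in each of the 16 mice, by group, with the mean and SD of the 4 log2 values. Mup20 lies higher in both IMC groups, Mup21 lies lower in both ethanol-fed groups, and the other members are lowest in EtOH IMC or, for Mup18, low in both IMC groups.

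The difference of the IMC change between diets rests on the same samples and is likewise a description. It sets libraries 9 to 16 against libraries 1 to 8, so the library numbering and this difference cannot be told apart. Past the threshold were 2 of 8 members lower and 0 higher, beside 0.79% and 0.319% of genes. These were Mup3, with a difference of -2.02 (SE 0.358) on the log2 scale, and Mup15, with -2.44 (SE 0.57). Mup3 stayed past the threshold in all 16 fits that left out 1 library, but Mup15 in only 2 of them.

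Other rows of the table with a Mup symbol numbered 13, and 3 of them passed the filter. The 8 members held 95.2% to 99.7% of the summed rescaled count of all rows with a Mup symbol. The 3 rows that passed are also near copies. Mup16 had a log2 fold change with IMC of -2.62 in pair-fed and -3.62 in ethanol-fed mice, Mup17, whose row also carries the symbol Mup13, of -3.16 and -4.51, and Mup19 of -2.36 and -3.47. The 10 rows that did not pass held 0 to 10 reads in each library, and Mup4 and Mup6 had 0 in all.

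Ethanol was compared with pair feeding averaged over IMC and control, a comparison of 8 against 8 livers. In it the IMC change averaged over diets cancels out, but a difference of that change between diets does not. The averaged value is the mean of the ethanol changes in control and in IMC-treated mice. Where these differ, it describes neither alone. Mup21 and Mup3 fell, Mup20 rose, and none of the 5 near copies passed the test at the settings used here. Ethanol called 2 of 8 members lower, with 13.1% of the 12537 genes called lower, and 1 of 8 higher, with 12.9% of genes called higher. With so many genes called, these counts are no result about the members as a set. Mup21, among the lower members, passed the filter through the pair-fed livers. The median log2 fold change of the members was -0.52, and that of all genes -0.0027.

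Mup21 had the clearest ethanol difference. Its rescaled count ranged from 23.9 to 45.8 with a median of 29.2 in the 8 pair-fed livers, and from 5.16 to 19.5 with a median of 9.35 in the 8 ethanol-fed livers. The diets did not overlap, whether or not IMC was given. The log2 fold change was -1.67 (SE 0.24, adjusted p = 0.000121, limma). Within control mice it was -1.56 (adjusted p = 0.00744) and within IMC-treated mice -1.77 (adjusted p = 0.0023), and each was called in all 16 fits that left out 1 library. The counts behind it were low, at 6 to 23 reads per ethanol-fed library. Because Mup21 passed the filter through the pair-fed livers, its adjusted p-values are a description and no independent test of a fall with ethanol.

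Mup3 ranged from 5260 to 16841 with a median of 10128 in pair-fed livers, and from 954 to 10887 with a median of 5150 in ethanol-fed livers. The low values were those of the 4 EtOH IMC livers. Its averaged log2 fold change was -1.30 (SE 0.179, adjusted p = 8.86e-05, limma). In control mice it was -0.29 (SE 0.253, adjusted p = 0.493), with overlapping groups. In IMC-treated mice it was -2.31 (SE 0.253, adjusted p = 2.90e-05), with groups that did not overlap. These values differ by the same -2.02 as the IMC changes between diets.

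Mup20 ranged from 165 to 926 with a median of 365 in pair-fed livers, and from 211 to 1158 with a median of 551 in ethanol-fed livers. The diets overlapped, since the spread within each diet is mostly that between control and IMC. Its averaged log2 fold change was 0.49 (SE 0.131, adjusted p = 0.011, limma), and it was called in all 16 fits that left out 1 library.

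Of the 5 near copies, Mup2 was nearest to the threshold, with an averaged log2 fold change of -0.67 (SE 0.245, adjusted p = 0.0518). It was called when library 16, 4, 3 or 13 was left out, with adjusted p-values of 0.0215, 0.0167, 0.0439 and 0.0463. It was also called with a pseudocount of 0.1 (adjusted p = 0.0441), quantile normalization (0.0472), edgeR with TMM (0.0488) and DESeq2 (0.0198). Mup10 had -0.64 (SE 0.304, adjusted p = 0.128), and -0.93 (adjusted p = 0.00454) without library 6. Both averages join unlike values. In control mice Mup2 had 0.26 and Mup10 0.46, and in IMC-treated mice they had -1.60 and -1.75. For Mup11, Mup15 and Mup18 the values were -0.39, -0.26 and 0.43, with adjusted p-values of 0.47, 0.528 and 0.344.

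**Figure D4:**
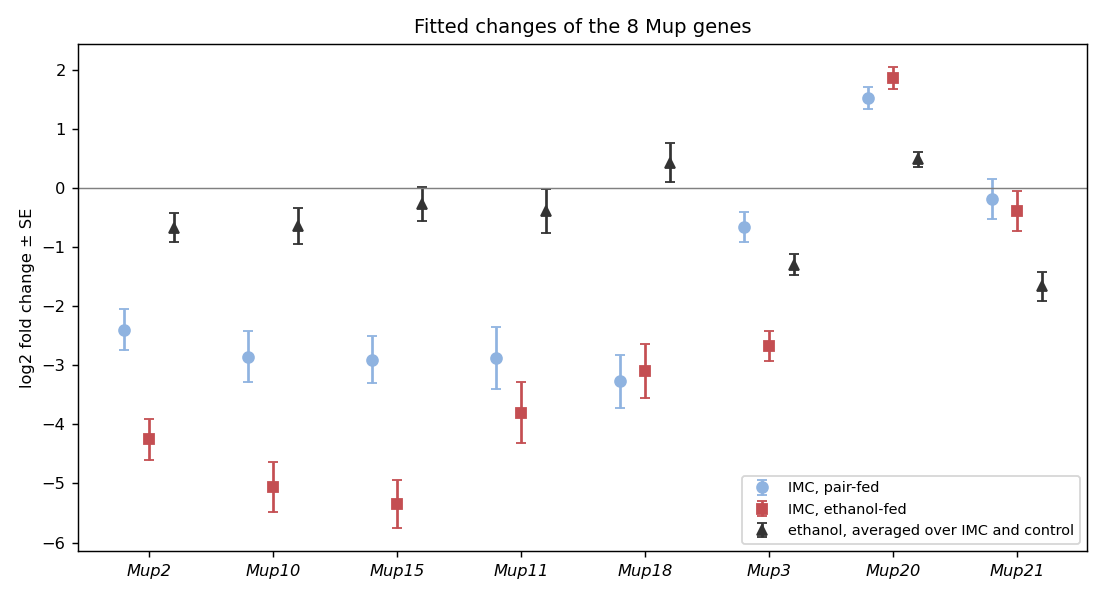
Fitted log2 fold changes with SE of the 8 members for IMC (pair-fed and ethanol-fed mice, separately) and for ethanol averaged over IMC and control. The IMC points of the 5 near copies lie between -2.40 and -5.35, those of Mup20 at 1.53 and 1.86, and the ethanol point of Mup21 at -1.67.

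Split by treatment, the ethanol comparisons share livers with the IMC comparisons and are less separate from the choice of members. In control mice only Mup21 was called, as 1 of 8 lower, with 5.54% of genes called lower and 6.33% higher. The limit that the filter sets for Mup21 holds here too. The near copies were not called there. Mup15 had the largest value among them at 0.96 (SE 0.403, adjusted p = 0.129), and its EtOH control livers lay above its Pair control livers without overlap. It was called on the values as deposited (adjusted p = 0.0472), with only the control livers in the fit (adjusted p = 0.0338) and with edgeR on whole reads (adjusted p = 0.0361 with TMM). The summed rescaled count of the 8 members in EtOH control was 91.0% of that in Pair control.

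In IMC-treated mice, ethanol called 5 of 8 members lower, with 8.57% of genes called lower, and 1 of 8 higher, with 7.86% called higher. Mup21 is among the 5, and the limit that the filter sets for it holds here too. No EtOH IMC liver reached a rescaled count of 10 for Mup2 or Mup15, with 2 to 6 and 3 to 11 reads. Mup2 had a log2 fold change of -1.60 (SE 0.347, adjusted p = 0.00513, limma) and Mup10 of -1.75 (SE 0.429, adjusted p = 0.011). The Pair IMC and EtOH IMC livers overlapped for Mup10, Mup15 and Mup20, but not for Mup2. The EtOH IMC sum of the 8 members was 29.8% of the Pair IMC sum. Mup15 had -1.49 (SE 0.403, adjusted p = 0.0182), which was 0.0574 without library 2, 0.0509 without library 13 and 0.0655 without library 15. Mup20 had 0.66 (SE 0.185, adjusted p = 0.0221). Its adjusted p was 0.0523, 0.0727, 0.067, 0.0674 and 0.077 without library 4, 6, 8, 13 and 15. Mup11 and Mup18 were not called, at -0.85 and 0.52 (adjusted p = 0.286 and 0.472).

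Library numbers ran with the groups. Numbers 1 to 8 held Pair IMC and EtOH control, and numbers 9 to 16 held Pair control and EtOH IMC. What the numbers mark is not given in the sources used here. For each comparison within a diet or a treatment, and for the difference of the IMC change between diets, the numbering and the groups cannot be told apart. The averaged ethanol comparison takes 4 pair-fed and 4 ethanol-fed livers from each run of numbers. All ethanol-fed livers had odd numbers and all pair-fed livers even numbers, however, so ethanol cannot be told apart from odd and even numbering.

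Of the genes known to act on Mup transcription or on growth hormone signalling in liver, 24 were listed and all 24 were tested. With ethanol averaged over IMC and control, 1 rose and 4 fell, beside 12.9% and 13.1% of all genes. Socs2, a feedback inhibitor induced by growth hormone, had a log2 fold change of -1.08 (SE 0.19, adjusted p = 0.000584). It was -2.07 in control mice (adjusted p = 0.000276, limma) but -0.10 in IMC-treated mice (adjusted p = 0.83). Cux2, a female-biased repressor of male-biased genes, had -1.09 (SE 0.166, adjusted p = 0.000202), with -1.64 in control mice and -0.54 in IMC-treated mice. The receptors for prolactin and growth hormone fell less, with -0.43 (SE 0.0775, adjusted p = 0.000738) for Prlr and -0.40 (SE 0.0741, adjusted p = 0.00093) for Ghr. In control mice Prlr had -0.08 and Ghr -0.14 (adjusted p = 0.672 and 0.392, limma). Under IMC they had -0.78 and -0.65 (adjusted p = 0.000246 and 0.000623). Onecut1, which encodes HNF6, rose by 0.74 on the log2 scale (SE 0.239, adjusted p = 0.0291). Its change was 0.26 in control mice (adjusted p = 0.655, limma) and 1.23 in IMC-treated mice (adjusted p = 0.0194). Among the EtOH IMC livers, library 9 stood at 722 rescaled counts, against 210 to 290 in the others. The median of the 24 genes was -0.15.

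Ghr had rescaled counts of 5868 ± 591 and 5020 ± 743 in Pair control and Pair IMC, and of 5303 ± 401 and 3170.5 ± 218 in EtOH control and EtOH IMC (SD, n = 4). In the same order, Prlr stood at 4361 ± 459, 3905 ± 528, 4113 ± 238 and 2269 ± 266. Both receptors were thus lowest in EtOH IMC, the group in which the sum of the members was lowest and Mup20 was highest. A link between the receptors and the Mup levels was not tested. Socs2 was lowest in EtOH control, at 83.6 ± 16.5. It was at 358 ± 99.5 in Pair control, 244 ± 79.3 in Pair IMC and 224 ± 67.7 in EtOH IMC.

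**Figure D5:**
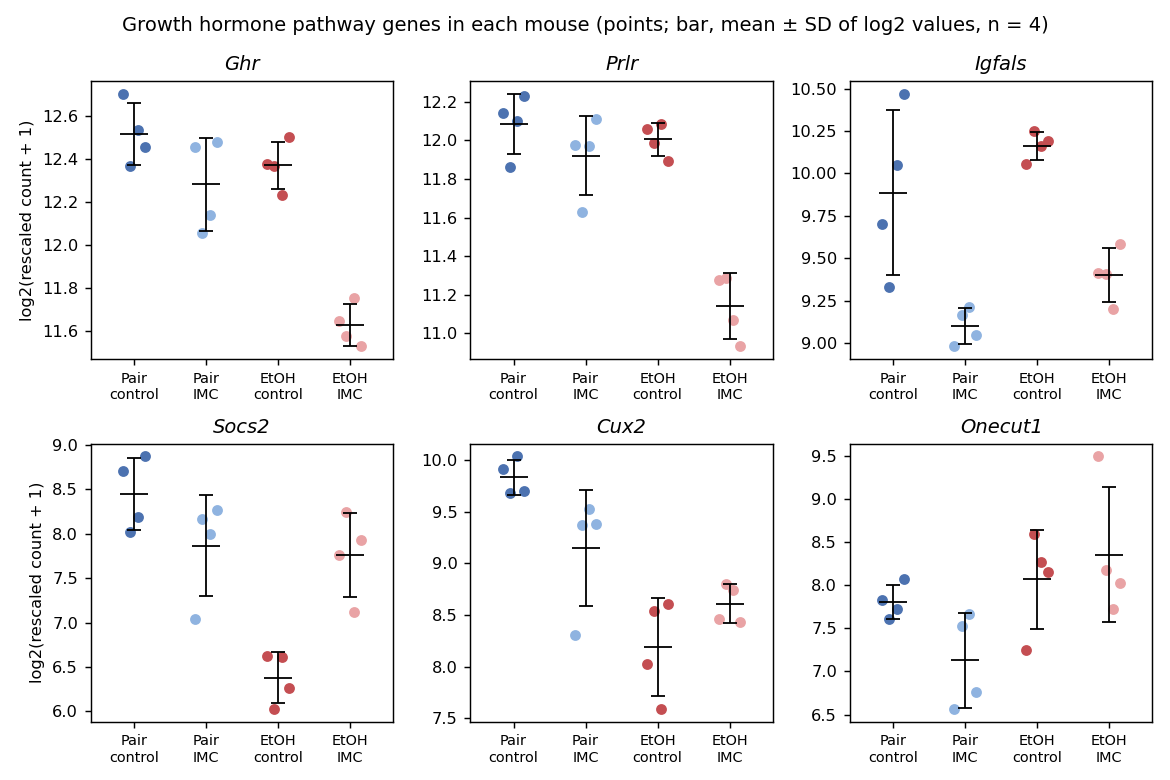
Rescaled counts of 6 growth hormone pathway genes on a log2(value + 1) scale in each mouse, by group, with the mean and SD of the 4 log2 values. Ghr and Prlr are lowest in EtOH IMC, Socs2 is lowest in EtOH control, and Igfals is lower in both IMC groups than in EtOH control.

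With IMC, the same list had 1 gene higher and 4 lower in pair-fed mice, and 2 higher and 9 lower in ethanol-fed mice. The shares of all genes were 4.32% higher and 5.17% lower in pair-fed mice, and 10.4% and 11.1% in ethanol-fed mice. In pair-fed mice Hnf4a, a nuclear receptor of hepatocytes, rose by 0.71 on the log2 scale (adjusted p = 0.00322, limma). The largest falls were in Cish, a target of STAT5, at -0.99 (adjusted p = 0.0364), Igfals, which encodes a partner of circulating IGF1, at -0.79 (adjusted p = 0.00699), and Igf1 at -0.56 (adjusted p = 0.0224). In ethanol-fed mice Socs2 rose by 1.38 (adjusted p = 0.00183) and Hnf4a by 0.62 (adjusted p = 0.00298). The largest falls there were in Bcl6, a repressor that opposes STAT5, at -0.92 (adjusted p = 0.0277), Prlr at -0.86 (adjusted p = 6.44e-05) and Stat5a at -0.76 (adjusted p = 0.0103). Stat5b, the main STAT5 of hepatocytes, had 0.15 in pair-fed and -0.37 in ethanol-fed mice, and passed in neither (adjusted p = 0.613 and 0.122).

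Genes that differ between male and female liver were listed for comparison, since the Mup genes are male-biased. Of 13 male-biased genes tested, 3 rose and 0 fell with ethanol averaged over IMC and control, beside 12.9% and 13.1% of all genes, and the median was 0.03. These were Gstp1, a glutathione transferase, at 1.15 (adjusted p = 1.55e-05, limma), Cyp2d9 at 1.005 (adjusted p = 0.00345) and Ugt2b1 at 0.45 (adjusted p = 0.000635). Of 21 female-biased genes, 6 rose and 9 fell, beside the same shares of all genes, with a median of -0.44. Cyp2b10, a cytochrome P450 induced by many drugs, rose by 5.95 on the log2 scale (adjusted p = 2.28e-10), Prom1 by 1.39 (adjusted p = 0.000321) and Cyp2b13 by 0.60 (adjusted p = 0.00801). The largest falls were A1bg at -2.89 (adjusted p = 0.000416), Cyp3a16 at -2.63 (adjusted p = 0.00344) and Sult3a1 at -2.37 (adjusted p = 0.00365).

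With IMC, to be read beside the same shares of all genes as above, the male-biased list had 1 gene higher and 2 lower in pair-fed mice, and 1 higher and 3 lower in ethanol-fed mice. The higher gene was Gstp1 in both diets, with log2 fold changes of 1.49 (adjusted p = 0.000169, limma) and 1.86 (adjusted p = 5.91e-06). Selenbp2 was lower in both, at -1.58 (adjusted p = 0.00703) and -1.40 (adjusted p = 0.00626), as was Ugt2b1, at -0.49 (adjusted p = 0.013) and -0.34 (adjusted p = 0.0395). Susd4 was lower in ethanol-fed mice, at -2.11 (adjusted p = 0.00427). It was at 11.2 ± 7.25 rescaled counts in EtOH control and 1.56 ± 1.26 in EtOH IMC (SD, n = 4). It thus passed the filter through groups other than EtOH IMC, and its adjusted p is a description. The female-biased list had 1 higher and 7 lower in pair-fed mice, and 2 higher and 11 lower in ethanol-fed mice, with medians of -0.52 and -1.11. Cyp3a16 and Cyp3a44 are counted as lower in both diets, and the study had named both as decreased with IMC in these pair-fed livers. The list was also made with earlier results of these data known, so its IMC counts are a description. The largest falls were in Cyp3a16, at -3.82 and -8.07, and Cyp3a41b, at -3.08 (adjusted p = 0.00997) and -4.92 (adjusted p = 0.000119). Next came A1bg in pair-fed mice, at -2.83 (adjusted p = 0.0167), and Ntrk2 in ethanol-fed mice, at -3.59 (adjusted p = 6.70e-06). Cyp2a4 rose by 1.28 (adjusted p = 0.0282) and 1.46 (adjusted p = 0.00691), and Cyp39a1 by 0.56 in ethanol-fed mice (adjusted p = 0.0148). The Cyp3a genes are themselves near copies of each other.

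Other lipocalins of the liver were measured beside the Mup genes. Of 9 tested, 0 were called with IMC in pair-fed mice, beside 4.32% of all genes higher and 5.17% lower. In ethanol-fed mice 4 were lower and 0 higher, beside 11.1% and 10.4% of all genes. The largest falls there were Ptgds at -2.21 (adjusted p = 0.000347), Orm3 at -2.20 (adjusted p = 0.0356) and Orm1 at -0.60 (adjusted p = 0.0395). With ethanol averaged, 3 fell and 0 rose, beside 13.1% and 12.9% of all genes. They were Ptgds, a prostaglandin synthase of the lipocalin fold, at -1.55 (adjusted p = 0.000274, limma), Orm2, an acute phase protein, at -1.41 (adjusted p = 0.00167) and C8g, a complement subunit, at -0.30 (adjusted p = 0.0281). Around the cluster, 22 genes outside the family within 1000000 bases of its edges were tested. IMC called 0 of these 22 in pair-fed mice, and 1 higher and 2 lower in ethanol-fed mice, beside the same shares of all genes. Those were Pole3 at 0.38 (adjusted p = 0.0151), Gm12909 at -1.51 (adjusted p = 0.000878) and Alad at -0.49 (adjusted p = 0.00699). Ethanol averaged called Ptgr1 higher at 0.60 (adjusted p = 0.00528) and Ugcg lower at -0.48 (adjusted p = 0.00341), beside 12.9% and 13.1% of all genes. These counts are no result about the neighbours as a set.

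The patterns of the members were compared over the 16 libraries by the Pearson correlation of log2 values, which mostly follows the 4 group means that the libraries share. Among the 5 near copies, r was 0.83 to 0.98 over 10 pairs. With group means removed it was 0.081 to 0.81, the highest being that of Mup10 with Mup15. Mup20 had r of -0.88 with Mup10 over the groups and 0.26 within them. Mup3 and Mup21 had r of 0.56 over the groups and -0.22 within them.

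Outside the family, the gene 9030619P08Rik was among the 3 most like Mup10 (r = 0.97), Mup15 (r = 0.96), Mup2 (r = 0.96) and Mup11 (r = 0.91). Its mean rescaled counts were 655 and 186 for Pair control and Pair IMC, and 783 and 106 for EtOH control and EtOH IMC. The other genes most like Mup2 were Il1rap and Ddo, and Tst was among the 3 most like both Mup10 (r = 0.95) and Mup15 (r = 0.96). For Mup11 they were Cyp3a41b and Lgals8, and for Mup18 they were Lipc, Aldoc and Naglu. Erbb4, Entpd8 and Ghr were most like Mup3, with r of 0.95, 0.93 and 0.93. Cirh1a, Supt5 and Dusp3 were most like Mup20, with r of 0.92 to 0.95. Gm33543, Slc17a8 and 5830473C10Rik were most like Mup21. Each likeness is over 16 libraries of the same 4 groups.

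Markers of liver cell types were summed in each library. All 9 hepatocyte markers found in the table were detected, and together made up 11.4% to 16.5% of Pair control, 15.6% to 15.96% of Pair IMC, 11.1% to 11.6% of EtOH control and 10.2% to 12.8% of EtOH IMC. Of 8 pancreas markers, 6 were at 0 in all libraries. The blood list was lower in EtOH IMC, at 50.8 to 134, than in Pair IMC, at 218 to 392. The 5 intestine list genes found, of which 1 was at 0, summed to 1270 to 1412 for Pair control and 734 to 937 for Pair IMC. For EtOH control they summed to 1108 to 1243, and for EtOH IMC to 335 to 1441. The bile duct list was at 708 to 1209 in Pair control, above the 611 to 694 of Pair IMC, with 598 to 845 in EtOH control and 551 to 710.1 in EtOH IMC. The Kupffer cell list was at 2051 to 5955 in Pair control and 2352 to 3394 in Pair IMC. At 3400 to 4559 it was wholly above Pair IMC in EtOH control, and it was at 2553 to 4026 in EtOH IMC. The 6 endothelial markers overlapped between all 4 groups, at 2901 to 3925. The stellate list was at 4306 to 5071 in EtOH control, above the 2729 to 4190 of the other groups. The part of these shifts in the Mup values was not tested.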

How the data were processed

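RNA was sequenced from 16 mouse livers in 4 groups of 4, mapped from the sample labels. The authors used Trim Galore and FastQC before STAR alignment to mm10 and edgeR normalization, per the labels and methods; the counting program is not given in the sources used here. The deposited values are normalized counts (a signal), reads divided by 1 size factor per library set within each diet. Whole reads were recovered from them (100% within 0.01 of a whole number). All columns were rescaled by a median ratio over the 16 libraries, since the deposited median gene was 0.186 higher (log2) in ethanol-fed mice.

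Genes with a rescaled count of at least 10 in at least 4 libraries (12537) were tested on log2(value + 1) with limma 3.58.1 (R 4.3.3; group means, mean-variance trend, two-sided, Benjamini-Hochberg); fold changes on this scale understate those of low genes. Tested on simulated data with 200 genes changed by 1.5 (log2) for ethanol averaged over IMC and control, the fit recovered 97%, with 8 false calls. Smaller changes, such as the averaged ethanol values of the near copies, were not simulated. Alternatives were other pseudocounts, filters and scalings, count tests on whole reads (edgeR 4.0.16, DESeq2 1.42.0), and fits without each library. The count tests were repeated without library 15, whose deposited value of 1 read was nearest to 1 (1.01), an alternative chosen after seeing the data. No 2 libraries agreed within sampling noise (chi-square per degree of freedom at least 5.60 over 24 pairs within groups). Cage assignments are not given, so p-values measure the spread between these samples.

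Members and gene lists were chosen with earlier results of these data known. All 8 members are named, with the 3 largest rises and falls past the threshold from each list, values of regulators that did not pass, and the 3 genes most like each member; some genes that this rule would name are not reported here. Lists covered regulators, male-biased and female-biased genes, other lipocalins, neighbours and cell type markers. Positions, transcripts and 100-base words came from GENCODE vM21 (GRCm38), promoters from RefSeq (GRCm38.p6).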

Additional observations from a re-analysis of the deposited data

Results flagged for a closer look

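In 3 of 32 sets of a member and a group, the highest liver stood apart from the other 3 by Dixon's criterion; chance flags about 1 set in 20. Mup18 was at 23.5 rescaled counts in Pair control library 14, where the others were at 20.1 to 20.6, from 20 reads against 18 to 21 in the others. Mup20 was at 926 in Pair IMC library 2, against 497 to 553 in the others, and this liver held the highest rescaled count of its group for all 8 members. Mup21 was at 19.5 in EtOH IMC library 11, against 5.16 to 7.56 in the others, and this liver held the lowest Mup3 count of its group.

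The IMC change passed the threshold for a difference between diets for 2 members, which the choice of members already involves. Mup15 passed in only 2 of the 16 fits that left out 1 library, and Mup3 in all 16. The difference, ethanol-fed minus pair-fed, was -2.02 on the log2 scale for Mup3 and -2.44 for Mup15.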

How the results depend on the processing

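No paired analysis was possible because the groups share no replicate numbers. Leaving out 1 library at a time, the members called were 6 to 7 for IMC in pair-fed mice, 7 to 7 in ethanol-fed mice, 1 to 3 for the difference between diets, 1 to 1 for ethanol in control mice, 4 to 6 in IMC-treated mice and 3 to 4 averaged. With a mean value of at least 100, 4 members were tested and 3, 4, 1 and 0 were called for IMC (pair-fed, then ethanol-fed), the difference and ethanol in control mice. The difference was called for 1 member without a filter, without the trend and with edgeR without library 15, and for 4 with DESeq2. The IMC comparisons chose the members and the difference rests on them, so steady counts are no support for either. With all libraries, IMC called 5.17% of genes lower and 4.32% higher in pair-fed mice, and 11.1% and 10.4% in ethanol-fed mice. For the difference the shares were 0.79% and 0.319%. Ethanol in control mice called 2 members (Mup15 added) with values as deposited, with only the libraries of the comparison, and with edgeR by TMM, by upper quartile and without library 15. With edgeR without library 15, ethanol in IMC-treated mice called 3 members. Those lost were Mup2 (adjusted p = 0.0622), Mup15 (0.123) and Mup20 (0.0843). Mup15 was also lost with edgeR by upper quartile (0.0506). With values as deposited, the family sum was 0.055 (log2) in EtOH control against Pair control instead of -0.14, because that scaling was set within each diet. Values that were not called and changed sign were Mup18 in the difference (-0.14 with a pseudocount of 5, -0.22 with edgeR and -0.21 with DESeq2 without library 15, -0.23 to 0.64 without single libraries), Mup21 in the difference (0.048 with edgeR and 0.049 with DESeq2 without library 15) and Mup11 for ethanol in control mice (-0.20 to 0.30 without single libraries). The causes of the other changes were not tested. Few reads limit Mup11 and Mup18, and shared words limit all 5 near copies and the sums and shares that include them.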
